A study of Homo sapiens with 16 samples.

Results

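The levels of 10 genes of the Notch pathway were followed through RNA-Seq of melanoma cells treated with corin. The genes are the receptors NOTCH1, NOTCH2 and NOTCH3, the ligands JAG1, JAG2 and DLL1, and the transcription factors HES1, HEY1, HEY2 and HEYL. These 10 members were chosen by gene symbol among the 34228 genes of the count table, with earlier results of these data known, and each matched 1 row of it. Corin is a hybrid compound that blocks both kinds of enzyme in the CoREST repressor complex, the demethylase LSD1 (KDM1A) and the deacetylases HDAC1 and HDAC2. The cells were 451Lu-R and 1205Lu-R, human melanoma cell lines whose resistance to BRAF inhibitors was raised by growing doses of the BRAF inhibitor PLX4032 (vemurafenib) and kept up in 5 μM PLX4032. In each line, 2 libraries came from cells given 2.5 μM corin for 24 h and 2 from cells given the vehicle DMSO, so the 4 groups of 2 libraries differ in line and in corin. The titles of these libraries read 451Lu and 1205Lu without -R, unlike those of the PLX4032 samples. That the cells were the resistant lines is taken from the RNA-Seq methods of the study. It is not stated in the sources used here if PLX4032 was withdrawn before or during these treatments, so the DMSO level may or may not be one under PLX4032. The samples treated with PLX4032 in the same series were not analysed here. Each phenotype is represented by 1 resistant line, and it is not stated in the labels if replicates came from separate cultures, so p-values measure only the spread between these libraries, which may be technical.

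Notch receptors sit in the plasma membrane and are activated by ligands of the Jagged and Delta-like families on a neighbouring cell. Binding leads to cleavage of the receptor by ADAM proteases and then by gamma-secretase, and the released intracellular domain enters the nucleus, where it joins the DNA-binding protein RBPJ and Mastermind-like coactivators at target genes. HES and HEY genes are the best known of these targets and encode basic helix-loop-helix repressors. Without the intracellular domain, RBPJ recruits corepressors, and LSD1 and histone deacetylases are among the enzymes described at such sites. In the melanocyte lineage, Notch signaling is known for keeping melanoblasts and melanocyte stem cells, and it has also been described as active in melanoma.

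Library totals ran from 9516687 to 11797788 estimated counts, and replicates differed slightly more than counting noise, at 1.34 to 1.41 in chi-square divided by its degrees of freedom. Levels are in CPM, the estimated counts scaled to a common library size after TMM normalization. The lines differed in the melanocytic markers fixed for checking the cell type. All 8 were well above the floor of 3 counts in 451Lu-R, where MITF stood at 755 ± 11.9 CPM (SD, n = 2) under DMSO. In 1205Lu-R, SOX10 and TYR were at 0 in all 4 libraries, 5 of the 8 markers had 3 counts or fewer in both DMSO libraries, and AXL stood at 998 CPM. The defining melanocytic markers were therefore absent or nearly so from 1205Lu-R, which carries the MITF-low, AXL-high label of the study. Under corin, 7 of the 8 melanocytic markers fell in 451Lu-R, among them MITF from 755 to 297 CPM (edgeR, adjusted p = 2.44e-20), and DCT rose by 0.78 on the log2 scale (adjusted p = 3.65e-19). The sum of the 8 moved little there, from 13040 and 13040 to 12150 and 12160 CPM. PMEL, the largest part of it, went from 8034 to 7490 CPM. In 1205Lu-R, MITF, PMEL and S100B rose by 1.05, 1.46 and 3.44 (adjusted p = 7.13e-07, 0.0285 and 2.28e-08), and the 8 markers summed to 8.90 and 8.59 CPM under DMSO and 25.9 and 22.7 under corin. Markers of the MITF-low state, AXL, NGFR, EGFR and WNT5A, also moved. In 451Lu-R their sum went from 7.66 and 7.67 to 393 and 384 CPM, mostly through NGFR (log2 8.44, adjusted p = 4.48e-24). In 1205Lu-R it went from 1300 and 1311 to 796 and 784 CPM, where AXL (log2 -1.09), WNT5A (-2.44) and EGFR (-0.11) fell and NGFR rose (5.03). The summed level of 3 fibroblast markers moved from 51.1 and 47.3 to 122 and 115 CPM in 451Lu-R, mostly through LUM. In 1205Lu-R the sum moved from 203 and 203 to 93.0 and 90.0 CPM, mostly through PDGFRA. The 3 endothelial markers summed to at most 10.2 CPM, almost all of it PECAM1 in 1205Lu-R, and 2 keratinocyte markers to at most 5.10 CPM, almost all of it KRT14 in 451Lu-R under corin. PTPRC, a marker of leukocytes, had at most 3 counts in any library, while CD68 had 62.9 and 91.9 CPM in 451Lu-R under DMSO and corin and 10.5 and 13.1 CPM in 1205Lu-R. The part of these shifts in the results below was not tested. In bulk RNA, fewer cells that express a gene and less RNA per cell cannot be told apart.

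Sequence near the start sites is shown for the members whose response or its absence the results turn on, to place the RBPJ motif beside the values. The core letters of that motif, TGGGAA, were searched on both strands in the 300 bases from 250 before to 50 after each start site in RefSeq (GRCh38.p14), and 24.0% of all 35116 such promoters held it at least once and 3.80% at least 2 times. HES1, HEY2 and HEYL each held it 2 times, and NOTCH1, NOTCH2, NOTCH3, JAG1 and JAG2 did not hold it. DLL1 and HEY1 had no entry. Each stretch below is 120 bases, 5′ to 3′ on the strand of the gene, in lower case, with capitals on complete matches (TTCCCA is the motif read on the other strand). The stretches run from -120 to -1 of the start site, except that of HEY2, which runs from -250 to -131 to include a match. RefSeq start sites can differ from the ends of the gene spans given below, and the HEY2 stretch lies inside its span. The HES1 stretch is chr3:194136028-194136147 on the plus strand, HEY2 is chr6:125749382-125749501 on the plus strand, HEYL is chr1:39639644-39639763 on the minus strand, JAG1 is chr20:10674000-10674119 on the minus strand and JAG2 is chr14:105168777-105168896 on the minus strand.
HES1: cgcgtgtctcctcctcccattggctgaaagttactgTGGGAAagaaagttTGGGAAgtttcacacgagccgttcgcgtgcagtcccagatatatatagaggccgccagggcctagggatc
HEY2: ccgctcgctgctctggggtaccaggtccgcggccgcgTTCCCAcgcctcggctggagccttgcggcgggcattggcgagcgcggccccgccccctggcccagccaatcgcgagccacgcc
HEYL: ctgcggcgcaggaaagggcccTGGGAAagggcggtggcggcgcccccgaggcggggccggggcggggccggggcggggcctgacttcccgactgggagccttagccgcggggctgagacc
JAG1: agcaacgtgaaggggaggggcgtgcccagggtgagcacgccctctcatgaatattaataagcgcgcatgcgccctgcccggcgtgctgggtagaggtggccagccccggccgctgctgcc
JAG2: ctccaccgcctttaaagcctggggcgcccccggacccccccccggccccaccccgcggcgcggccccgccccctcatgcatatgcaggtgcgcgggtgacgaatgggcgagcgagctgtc
In HES1 the matches lay at -84 to -79 and -70 to -65 from the start site, both on the strand of the gene. HEY2 had its other match at -3 to 3, outside the stretch shown, and HEYL had its other at -178 to -173. The letters CACGTG, an E-box that HES and HEY factors can bind, were in none of the 8 promoters searched and in 7.26% of all promoters, and CACNAG, the N-box, was in HES1, NOTCH1, NOTCH2 and NOTCH3 and in 38.0% of all. A match is a description of these letters, not evidence of binding.

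Under corin, 9 of the 10 genes rose in both lines and 0 fell, with edgeR and with DESeq2 and also at an unadjusted p under 0.05. The other gene, HEYL, had too few counts for a test. Since the members were chosen with earlier results of these data known, their shared direction describes them and is not independent support. Of the genes of these roles left out, the receptor NOTCH4 fell in both lines. Of the others left out, 4 of 4 HES and HEY genes and 2 of 3 ligands tested rose in each line. A gene was called at an adjusted p under 0.05 in edgeR's quasi-likelihood test over all genes. Log2 fold changes are given ± SE, from 2 libraries a group. Among all genes tested in 451Lu-R, 41.3% rose and 38.6% fell. For 1205Lu-R the shares were 40.4% and 37.8%, and 28.8% of the 13200 genes tested in both lines rose in both. The median log2 fold change of the 9 tested members was 1.84 in 451Lu-R and 1.81 in 1205Lu-R, where it was 0.03 over all genes in either line. At a fold change of at least 4 and an adjusted p under 0.001, 4 members passed in each line, where 12.4% of all genes in 451Lu-R and 11.3% in 1205Lu-R rose that far. NOTCH3, JAG1 and JAG2 passed in both, with DLL1 in 451Lu-R and HEY2 in 1205Lu-R. JAG2 and DLL1 in 451Lu-R and HEY2 in 1205Lu-R met the filter on low counts only through their corin libraries. They could enter the test only as rises, so their direction adds nothing to these counts or to the count of rises. The plot of fold changes shows the intervals of all 9 genes in both lines to the right of 0, with JAG2 farthest to the right in each line and NOTCH2 nearest to 0.

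**Figure D1:**
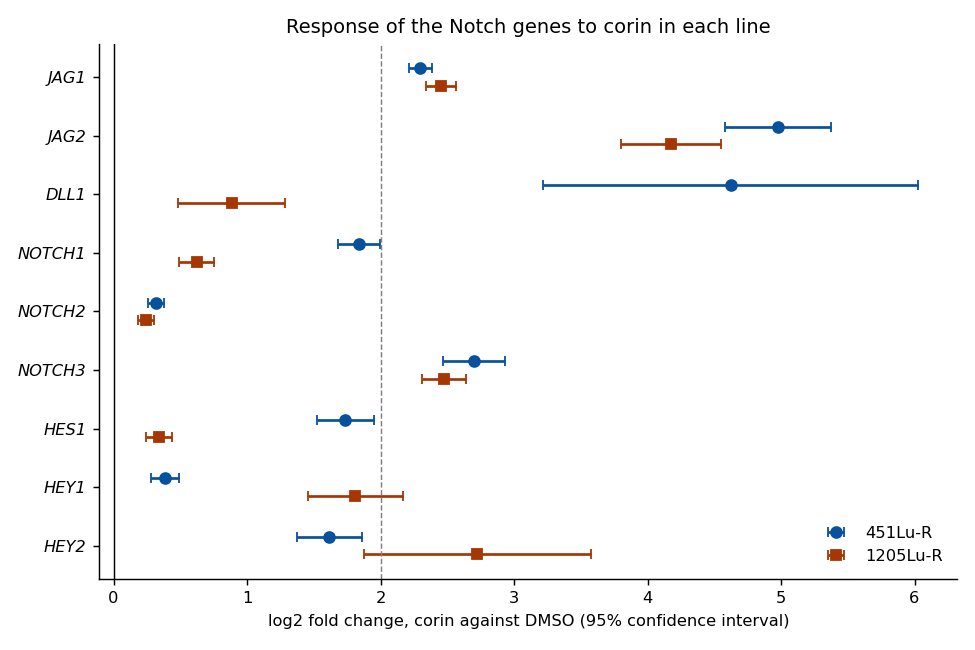
The log2 fold change of 9 Notch genes under corin against DMSO (x axis) in 451Lu-R (circles) and 1205Lu-R (squares), with 95% confidence intervals from edgeR and a dashed line at a 4-fold change. All intervals lie above 0, with fold changes from 0.24 for NOTCH2 in 1205Lu-R to 4.98 for JAG2 in 451Lu-R, and DLL1, NOTCH1 and HES1 lie farther right in 451Lu-R while HEY1 and HEY2 lie farther right in 1205Lu-R.

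Of JAG1, JAG2 and DLL1, JAG2 had the largest fitted change in each line, although in 451Lu-R it lay within the interval of DLL1. JAG2, a Jagged ligand (chromosome 14, 105140982 to 105168824, minus strand, GRCh38), was at 0.876 and 0.786 CPM in 451Lu-R under DMSO and at 25.7 and 28.4 CPM under corin. In 1205Lu-R it was at 1.13 and 1.56 CPM under DMSO and at 24.7 and 23.7 CPM under corin. Both DMSO groups thus held near 1 CPM, from 8 to 16 counts a library, and both corin groups stood far above them with no overlap. The log2 fold change was 4.98 ± 0.19 (SE; 31.5-fold, adjusted p = 4.58e-15) in 451Lu-R. The change in 1205Lu-R was 4.18 ± 0.18 (18.1-fold, adjusted p = 3.33e-15).

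JAG1, the other Jagged ligand (chromosome 20, 10637684 to 10673999, minus strand), had more RNA per kb than JAG2 and DLL1 in all 8 libraries. It stood at 48.6 and 47.6 CPM under DMSO and 241 and 239 CPM under corin in 451Lu-R. For 1205Lu-R the values were 26.4 and 24.0 CPM under DMSO and 136 and 137 CPM under corin. The 4 groups did not overlap, and their order ran from 1205Lu-R under DMSO through 451Lu-R under DMSO and 1205Lu-R under corin to 451Lu-R under corin. JAG1 rose 4.92-fold in 451Lu-R (log2 2.30 ± 0.04, adjusted p = 2.47e-20) and 5.47-fold in 1205Lu-R (log2 2.45 ± 0.05, adjusted p = 3.49e-20). An unnamed gene on the other strand shares 306 exonic bases with JAG1, but it had 3 counts over the 8 libraries, and another that shares 469 exonic bases with JAG2 had 3.3.

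DLL1, a Delta-like ligand (chromosome 6, 170282206 to 170306565, minus strand), was at or near 0 in 451Lu-R under DMSO. In 451Lu-R it had 2 and 0 counts under DMSO against 37 and 18 under corin, which is 3.26 and 1.86 CPM. In 1205Lu-R it had 43 and 42 counts under DMSO against 80 and 77 under corin, or 4.04 and 4.10 against 8.20 and 6.76 CPM. The groups did not overlap, but only the 1205Lu-R libraries held DLL1 above the floor before corin. The ratio of corin to DMSO in 451Lu-R was 28.2, with an exact 95% interval of 7.46 to 239 that covers counting error only (fitted log2 4.62 ± 0.67, adjusted p = 3.18e-06). That fitted value moved to 7.75 without 451Lu-R DMSO replicate 1 and to 3.78 without 451Lu-R DMSO replicate 2. In 1205Lu-R DLL1 rose 1.85-fold (log2 0.88 ± 0.19, adjusted p = 0.000274). DLL1 shares 370 exonic bases with FAM120B on the opposite strand, and whether the libraries kept strand is not given in the sources used here. FAM120B itself rose with corin, by 0.88 ± 0.08 (adjusted p = 2.87e-09) and 1.32 ± 0.08 (adjusted p = 7.64e-13) on the log2 scale, and its part in the DLL1 values was not tested. Under DMSO, FAM120B stood at 23.5 and 22.4 CPM in 451Lu-R, where DLL1 was at 2 and 0 counts.

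**Figure D2:**
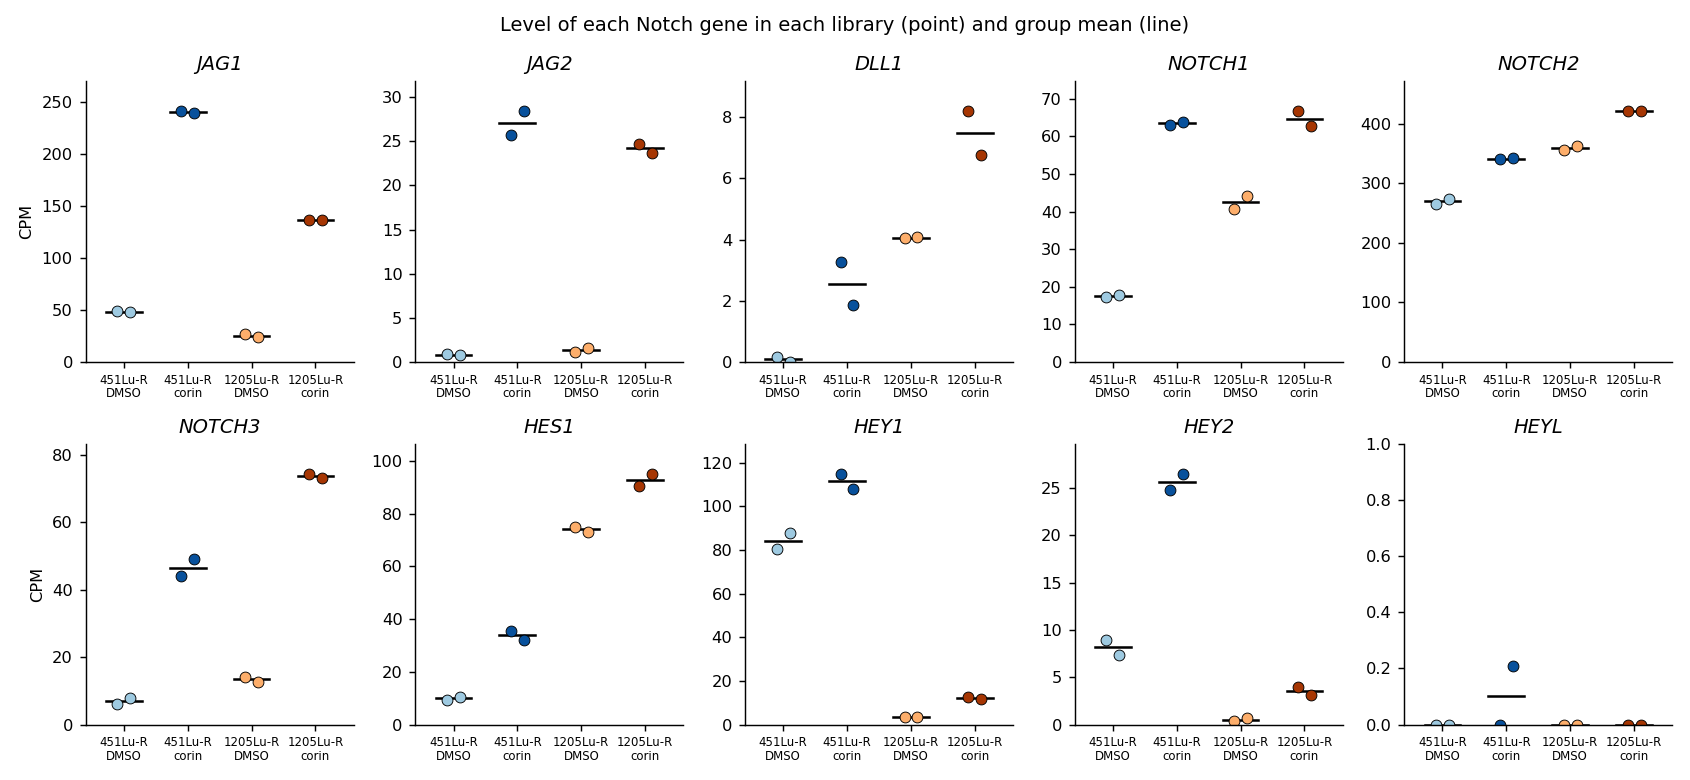
The level of each of the 10 Notch genes in CPM (y axis, starting at 0 and scaled for each gene) in 451Lu-R and 1205Lu-R under DMSO or corin. Points are the 2 libraries of a group and lines are group means, and every corin point lies above the DMSO points of its line except for HEYL, which was at 0 in 7 libraries.

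Among the 3 receptors chosen, NOTCH3 rose most and NOTCH2 least. NOTCH3 (chromosome 19, 15159038 to 15200995, minus strand) was at 6.22 and 7.96 CPM under DMSO and 44.2 and 49.1 CPM under corin in 451Lu-R. For 1205Lu-R its level was 14.2 and 12.6 CPM under DMSO and 74.4 and 73.3 CPM under corin. Each corin library was more than 3 times any DMSO library of either line. The rise was 6.49-fold in 451Lu-R (log2 2.70 ± 0.11, adjusted p = 1.59e-14) and 5.57-fold in 1205Lu-R (log2 2.48 ± 0.08, adjusted p = 1.44e-17).

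NOTCH1 (chromosome 9, 136494433 to 136546048, minus strand) stood at overlapping levels in the lines under corin and at different levels under DMSO. It went from 17.2 and 17.8 CPM to 63.2 and 63.8 CPM in 451Lu-R, and from 40.7 and 44.2 CPM to 66.8 and 62.8 CPM in 1205Lu-R. The libraries of the corin groups overlapped, and this was the only pair of neighbouring groups that did so among the 9 members tested. NOTCH1 rose 3.57-fold in 451Lu-R (log2 1.84 ± 0.08, adjusted p = 1.83e-14) and 1.54-fold in 1205Lu-R (log2 0.62 ± 0.06, adjusted p = 8.36e-09).

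NOTCH2 (chromosome 1, 119911553 to 120100779, minus strand) was the receptor with the most RNA per kb throughout. Its level was 265 and 274 CPM under DMSO and 341 and 342 CPM under corin in 451Lu-R. In 1205Lu-R the level was 356 and 362 CPM under DMSO and 421 and 421 CPM under corin. The groups did not overlap, and the small rises of 1.25-fold (log2 0.32 ± 0.03, adjusted p = 2.43e-09) and 1.18-fold (log2 0.24 ± 0.03, adjusted p = 1.13e-07) exceeded the spread between replicates. NOTCH2 shares near-identical sequence with the 4 partial copies NOTCH2NLA, NOTCH2NLB, NOTCH2NLC and NOTCH2NLR, so its values are uncertain to the extent that salmon could misplace reads. In 451Lu-R under DMSO the copies held 8.04% and 7.37% of the counts given to them and NOTCH2 together. With corin their share there was 4.58% and 4.68%. For 1205Lu-R it was 5.58% and 4.75% under DMSO and 6.8% and 6.46% under corin. The part of these shifts in the NOTCH2 changes was not tested.

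Per kb of the main transcript, the 3 receptors summed to 25.7 and 26.8 CPM per kb under DMSO and 41.5 and 42.2 under corin in 451Lu-R, and to 37.0 and 37.8 under DMSO and 52.4 and 51.8 under corin in 1205Lu-R. NOTCH2 made up 90.2% and 89.6% of that sum in 451Lu-R under DMSO and 71.8% and 70.8% under corin. In 1205Lu-R its share went from 84.1% and 83.9% to 70.3% and 71.1%. The share of NOTCH3 went from 2.79% and 3.43% to 12.3% and 13.4% in 451Lu-R and from 4.41% and 3.84% to 16.4% and 16.3% in 1205Lu-R. After corin the receptor mix thus had a similar NOTCH2 share in the lines. Of the sum of JAG1, JAG2 and DLL1, JAG1 took 97.6% and 98.3% in CPM per kb in 451Lu-R under DMSO and 88.4% and 88.2% under corin. In 1205Lu-R, DLL1 held 18.7% and 20.1% under DMSO and 7.38% and 6.20% under corin, since JAG1 and JAG2 rose more. The sum of these 3 ligands went from 8.38 and 8.14 to 46.0 and 45.7 CPM per kb in 451Lu-R and from 5.71 and 5.40 to 29.4 and 28.9 CPM per kb in 1205Lu-R. The sum leaves out DLL3, a ligand known to act against Notch inside the cell, which stood at 8.52 and 9.12 CPM per kb in 451Lu-R under DMSO, above JAG1 at 8.19 and 8.01.

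**Figure D3:**
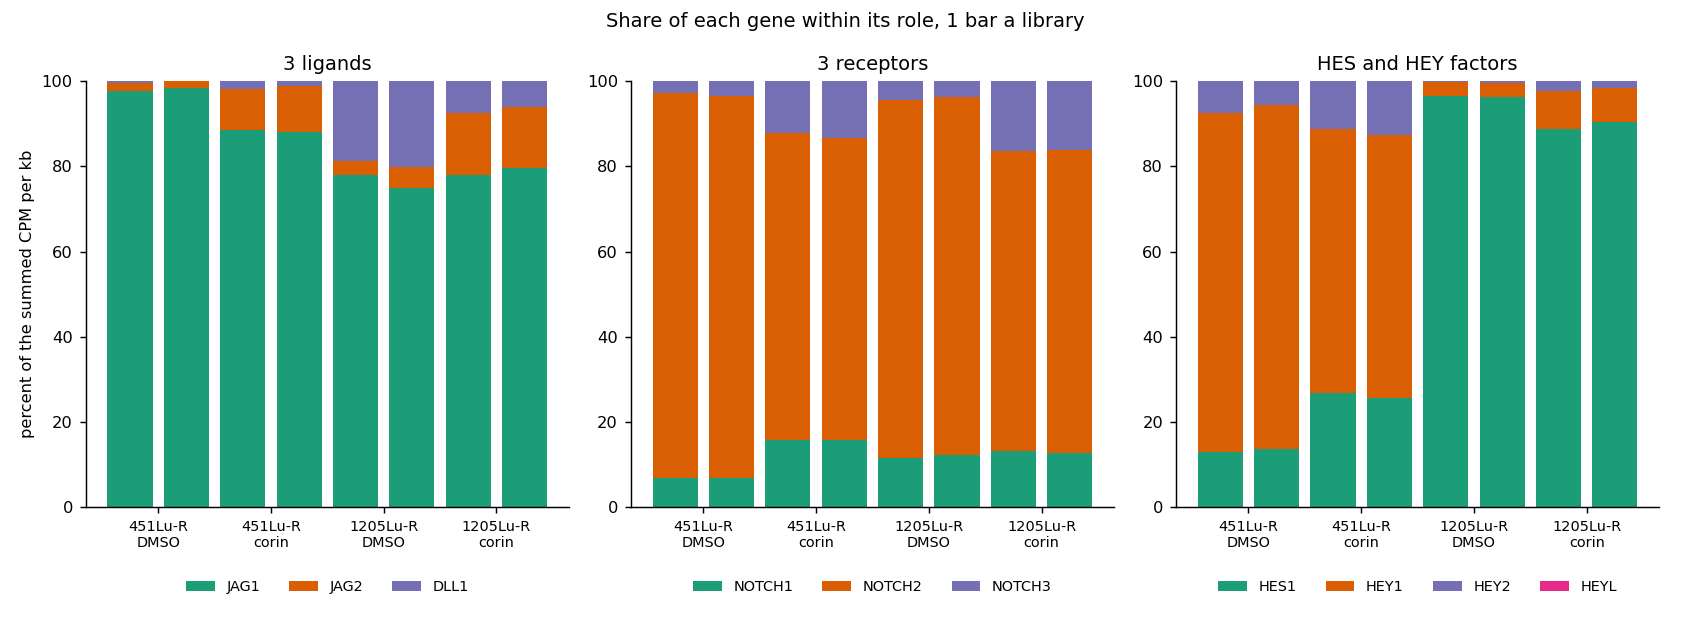
Share of each gene in the summed CPM per kb of the members of its role (y axis, percent), for 3 ligands, 3 receptors and 4 HES and HEY factors, with 1 bar for each library. NOTCH2 takes from 83.9% to 90.2% of the receptor sum under DMSO and from 70.3% to 71.8% under corin, and of the 4 factors drawn HEY1 leads in 451Lu-R and HES1 in 1205Lu-R.

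Among the HES and HEY members, HES1 was higher in 1205Lu-R and HEY1 and HEY2 were higher in 451Lu-R under both treatments. HES1 (chromosome 3, 194136148 to 194138732, plus strand), the repressor with both matches in the stretch printed above, was at 9.46 and 10.6 CPM in 451Lu-R under DMSO and at 35.5 and 32.2 CPM under corin. In 1205Lu-R it was already at 74.8 and 73.1 CPM under DMSO and at 90.4 and 95.1 CPM under corin. Even under corin, 451Lu-R held less HES1 than 1205Lu-R did without it. The rise was 3.33-fold in 451Lu-R (log2 1.74 ± 0.10, adjusted p = 5.43e-12) and 1.27-fold in 1205Lu-R (log2 0.34 ± 0.05, adjusted p = 8.74e-07).

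HEY1 (chromosome 8, 79762371 to 79767857, minus strand), a repressor of the HEY family, had the opposite distribution. It stood at 80.5 and 87.7 CPM under DMSO and 115 and 108 CPM under corin in 451Lu-R, and at 3.57 and 3.42 CPM under DMSO and 12.8 and 11.6 CPM under corin in 1205Lu-R. All 4 libraries of 451Lu-R lay above all 4 of 1205Lu-R. HEY1 rose 1.31-fold in 451Lu-R (log2 0.39 ± 0.05, adjusted p = 7.24e-07) and 3.51-fold in 1205Lu-R (log2 1.81 ± 0.17, adjusted p = 2.62e-09).

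HEY2 (chromosome 6, 125747664 to 125761269, plus strand), of the same family, followed that order at lower levels per kb. In 451Lu-R it was at 8.94 and 7.37 CPM under DMSO and 24.7 and 26.5 CPM under corin. In 1205Lu-R it had 4 and 7 counts under DMSO and 39 and 35 under corin, or 0.376 and 0.683 against 3.999 and 3.08 CPM. The groups did not overlap. HEY2 rose 3.07-fold in 451Lu-R (log2 1.62 ± 0.12, adjusted p = 1.35e-10) and 6.61-fold in 1205Lu-R (log2 2.73 ± 0.41, adjusted p = 3.11e-06).

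HEYL (chromosome 1, 39623435 to 39639643, minus strand), the remaining HEY gene, had 0 counts in 7 libraries and 2 in 451Lu-R corin replicate 2. A count of 3 would have been 0.263 to 0.311 CPM, so a HEYL level below this was not detectable at this depth, and HEYL did not pass the filter on low counts in any comparison. Its promoter stretch shows the same RBPJ letters as HES1 and HEY2. Per kb, the HES and HEY members summed to 46.0 and 49.4 CPM per kb in 451Lu-R and to 49.3 and 48.2 in 1205Lu-R under DMSO, with HEY1 at 79.6% and 80.7% of the sum in the former and HES1 at 96.4% and 96.2% in the latter. Under corin the sums were 84.2 and 79.7 in 451Lu-R and 64.8 and 66.8 CPM per kb in 1205Lu-R. These sums leave out HES6, of the same family, which stood at 141 and 132 CPM per kb in 451Lu-R under DMSO.

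The lines were then compared with each other, 1205Lu-R against 451Lu-R, under each treatment. Under DMSO, 8 of the 9 tested members differed. NOTCH1, NOTCH2, NOTCH3, DLL1 and HES1 were higher in 1205Lu-R and JAG1, HEY1 and HEY2 were lower, where 41.0% of all genes were higher and 41.5% lower. DLL1 met the filter on low counts only through 1205Lu-R and HEY2 only through 451Lu-R, so the filter fixed their directions here. HEY1 was 24.2-fold lower in 1205Lu-R (log2 -4.60 ± 0.11, adjusted p = 1.83e-22) and HEY2 was 15.4-fold lower (log2 -3.95 ± 0.31, adjusted p = 1.64e-11). HES1 was 7.30-fold higher in 1205Lu-R (log2 2.87 ± 0.08, adjusted p = 2.07e-20), and the ratio of DLL1 counts was 43.9, with an exact 95% interval of 11.8 to 369 for counting error. The fitted log2 difference of DLL1 was 5.27 ± 0.55 (adjusted p = 3.95e-09), with 8.39 without 451Lu-R DMSO replicate 1 and 4.43 without 451Lu-R DMSO replicate 2. Differences were smaller for NOTCH1 (log2 1.26, adjusted p = 1.23e-12), JAG1 (log2 -0.95, adjusted p = 2.30e-11), NOTCH3 (log2 0.91, adjusted p = 1.15e-05) and NOTCH2 (log2 0.40, adjusted p = 5.93e-12). JAG2 was not called, with a log2 difference of 0.66 and a 95% confidence interval from -0.24 to 1.56 (adjusted p = 0.162).

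Under corin, 7 members differed between the lines, 4 higher in 1205Lu-R and 3 lower, where 39.0% of all genes were higher and 40.2% lower. The directions were those found under DMSO. HEY1 was 9.18-fold lower in 1205Lu-R (log2 -3.20 ± 0.07, adjusted p = 1.69e-17), HEY2 7.29-fold lower (log2 -2.87 ± 0.15, adjusted p = 2.22e-12) and JAG1 1.76-fold lower (log2 -0.82 ± 0.03, adjusted p = 6.21e-14). DLL1 (log2 1.51 ± 0.25, adjusted p = 2.52e-05), HES1 (log2 1.45 ± 0.06, adjusted p = 1.68e-13), NOTCH3 (log2 0.67 ± 0.06, adjusted p = 1.45e-08) and NOTCH2 (log2 0.30 ± 0.03, adjusted p = 1.04e-08) were higher. NOTCH1 was not called, at a log2 difference of 0.03 with an interval from -0.09 to 0.14 (adjusted p = 0.693), and neither was JAG2, at -0.16 with an interval from -0.34 to 0.01 (adjusted p = 0.0848). Without 451Lu-R corin replicate 1, JAG2 was called as lower in 1205Lu-R (log2 -0.25, adjusted p = 0.0331). The size of the difference between the lines was smaller under corin than under DMSO for all 9 members tested, and for 58.6% of the 13610 genes tested under both treatments. The plot of line differences shows each corin value nearer to 0 than its DMSO value, with HEY1, HEY2, HES1 and DLL1 still well apart from 0.

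**Figure D4:**
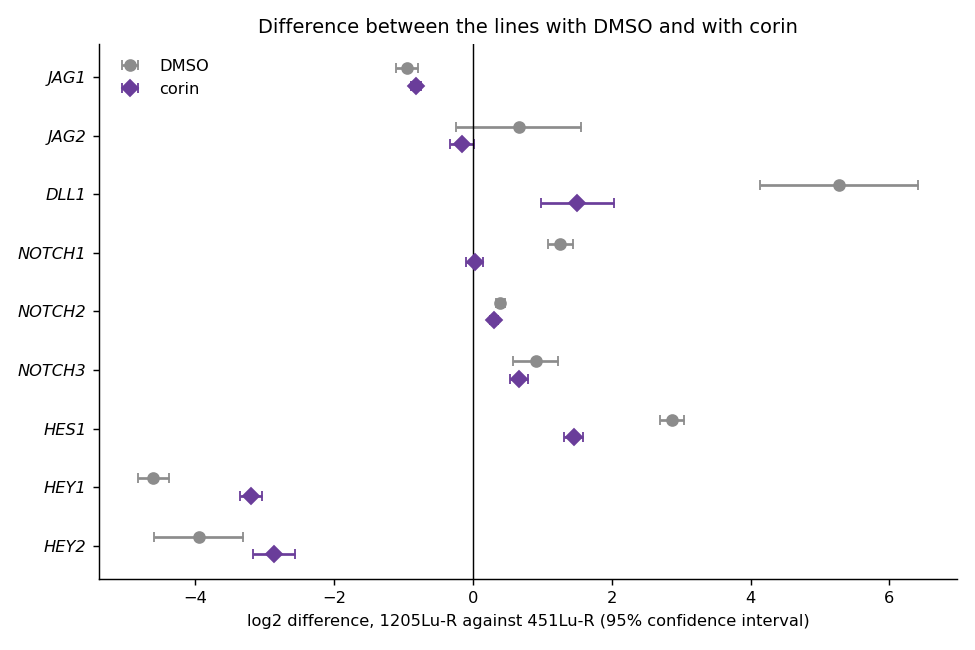
The log2 difference between 1205Lu-R and 451Lu-R (x axis, positive where 1205Lu-R was higher) for 9 Notch genes under DMSO (circles) and under corin (diamonds), with 95% confidence intervals from edgeR. NOTCH1 moves from 1.26 to 0.03 and HEY1 from -4.60 to -3.20, and each diamond lies nearer to 0 than the circle of its gene. The intervals of circle and diamond overlap for NOTCH2, NOTCH3, JAG1 and JAG2.

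Whether the lines responded differently was examined through the interaction of line and treatment over 8 libraries, a term that was called for 6 of the 9 members and for 49.7% of all genes. The response was larger in 451Lu-R for HES1, by 1.43 ± 0.11 on the log2 scale (1205Lu-R minus 451Lu-R, -1.43, adjusted p = 4.99e-10), for NOTCH1 (-1.25 ± 0.10, adjusted p = 5.70e-10) and for DLL1 (-3.78 ± 0.76, adjusted p = 0.000273). For DLL1 the value was -6.92 without 451Lu-R DMSO replicate 1 and -2.95 without 451Lu-R DMSO replicate 2. It was larger in 1205Lu-R for HEY1 (1.39 ± 0.18, adjusted p = 8.85e-07). HES1, NOTCH1 and DLL1 had the lower DMSO level in 451Lu-R and HEY1 in 1205Lu-R. The calls of NOTCH2 and HEY2 were close to the threshold. NOTCH2 had a difference of -0.11 ± 0.04 (adjusted p = 0.0309), which was lost with DESeq2 (adjusted p = 0.0869) and without any of 6 libraries (adjusted p from 0.0531 to 0.106), the exceptions being 451Lu-R DMSO replicate 2 and 1205Lu-R DMSO replicate 1. Scaling by library size only, which moved the median of all genes from -0.01 to 0.20, turned it to 0.10. The same scaling moved the share of called genes with a positive term (1205Lu-R minus 451Lu-R) from 45.4% to 64.0%. HEY2 had a difference of 1.07 ± 0.42 (adjusted p = 0.0424), with 0.69 and an adjusted p of 0.310 without 1205Lu-R DMSO replicate 1, the library with 4 HEY2 counts. It was also lost without 451Lu-R DMSO replicate 1 (0.90, adjusted p = 0.100), 451Lu-R corin replicate 1 (1.03, adjusted p = 0.0542) or 1205Lu-R corin replicate 1 (0.90, adjusted p = 0.114), and with DESeq2 (adjusted p = 0.106). The difference was not called for NOTCH3 (-0.26, interval -0.58 to 0.07, adjusted p = 0.182), JAG1 (0.12, interval -0.05 to 0.28, adjusted p = 0.256) and JAG2 (-0.84, interval -1.69 to 0.02, adjusted p = 0.0992).

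The rest of the pathway was read from a list of 69 further genes, grouped by role. Of the 66 tested in 451Lu-R, 35 rose and 27 fell, and of the 65 tested in 1205Lu-R, 31 rose and 27 fell, with median log2 fold changes of 0.29 and 0.17 against 0.03 over all genes. Over all genes 41.3% and 40.4% rose and 38.6% and 37.8% fell, so the falls in the list lay near the share of all genes. Of the other HES and HEY genes, 4 of 4 tested rose in each line. HES7 in both lines and HES2 in 451Lu-R met the filter on low counts only through corin libraries, so they could enter only as rises. HES4 went from 2.54 and 1.57 to 16.5 and 21.0 CPM in 451Lu-R and from 5.36 and 4.29 to 17.1 and 18.3 CPM in 1205Lu-R. HES6, which is known to oppose HES1, had more RNA per kb than HEY1 in 451Lu-R under both treatments and rose by 0.44 ± 0.04 and 2.07 ± 0.07 on the log2 scale (adjusted p = 1.28e-09 and 8.35e-17). HES7 had 0 and 0 counts in 1205Lu-R under DMSO against 20 and 21 under corin, at least 13.5-fold higher, and HES2 rose by 1.11 ± 0.48 (adjusted p = 0.0405) in 451Lu-R and 3.13 ± 0.20 (adjusted p = 2.44e-12) in 1205Lu-R. Bounds here are set against 3 counts over the group.

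DLL4, a Delta-like ligand known from vessel growth, had 0 and 0 counts in 451Lu-R under DMSO and 68 and 53 under corin, at least 41.4-fold higher. In 1205Lu-R it had 4 and 2 counts under DMSO and 44 and 47 under corin (log2 3.87 ± 0.42, adjusted p = 3.22e-08). DLL4 thus had at most 4 counts in a DMSO library of either line. NOTCH4, the remaining receptor, fell in both lines, by 1.27 (adjusted p = 0.00311) and 2.03 (adjusted p = 2.96e-05) on the log2 scale, from at most 3.69 CPM. In 1205Lu-R, NOTCH4 met the filter on low counts only through its DMSO libraries.

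Of the enzymes that act on ligands and receptors, the Fringe glycosyltransferases differed. LFNG rose in both lines, by 4.59 ± 0.30 (adjusted p = 3.11e-11) and 2.33 ± 0.11 (adjusted p = 1.21e-14) on the log2 scale. MFNG had 0 and 0 counts under DMSO and 84 and 90 under corin in 451Lu-R, at least 59.6-fold higher, but from 1 to 4 counts in the 1205Lu-R libraries. RFNG fell, by 0.78 (adjusted p = 6.24e-08) and 0.58 (adjusted p = 0.00106). The ubiquitin ligase NEURL1, which acts in ligand endocytosis, had 1 count over the DMSO libraries of each line against 34 (451Lu-R) and 62 (1205Lu-R) under corin, giving ratios of 34.9 (exact 95% interval 5.86 to 1419) and 61.3 (10.6 to 2459). Its relative NEURL1B rose by 4.43 ± 0.17 (adjusted p = 5.50e-15) and 1.63 ± 0.07 (adjusted p = 1.18e-15). Of the 9 proteases, 451Lu-R had 6 higher and 3 lower under corin, and 1205Lu-R had 4 higher and 4 lower. Within gamma-secretase, the subunit APH1A fell by 2.22 (adjusted p = 6.17e-19) and 1.72 (adjusted p = 5.79e-18) while its paralog APH1B rose by 1.73 (adjusted p = 2.37e-10) and 1.26 (adjusted p = 1.40e-08).

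Genes of the coactivator complex fell in nearly all cases. Of 7 genes of the coactivator complex, 7 fell in 451Lu-R and 6 fell and 1 rose in 1205Lu-R, the exception being the acetyltransferase KAT2B (log2 0.29, adjusted p = 0.026), where 38.6% and 37.8% of all genes fell. RBPJ, the DNA-binding partner of Notch, went from 88.8 and 82.4 to 57.0 and 58.6 CPM in 451Lu-R (log2 -0.59 ± 0.05, adjusted p = 5.39e-09). In 1205Lu-R, RBPJ went from 126 and 115 to 73.7 and 76.3 CPM (log2 -0.67 ± 0.05, adjusted p = 3.78e-11). The coactivator MAML2 fell by 0.54 (adjusted p = 0.00014) and 0.70 (adjusted p = 9.41e-08), and the acetyltransferase EP300 by 0.39 (adjusted p = 1.05e-08) and 0.97 (adjusted p = 1.48e-13). MAML2, EP300 and the subunit gene APH1B are named here with their values in view. Within each line, and apart from KAT2B in 1205Lu-R, RNA for these 7 genes was thus lower under corin, where HES and HEY RNA was higher. Between the lines, compared under the same treatment, the 7 genes were split. With DMSO, RBPJ, MAML1, MAML2 and MAML3 were called higher in 1205Lu-R (log2 0.47, 0.56, 0.98 and 0.49). EP300, SNW1 and KAT2B were called lower there (log2 -0.75, -0.88 and -1.78). The directions of all 7 were the same with corin. The summed HES and HEY members overlapped between the lines with DMSO, and with corin their sum was lower in 1205Lu-R. A link between the coactivator differences and the HES and HEY levels was not tested. Of 16 corepressor genes, 451Lu-R had 10 higher and 5 lower, and 1205Lu-R had 9 higher and 5 lower. Over all genes, 41.3% rose in 451Lu-R and 40.4% in 1205Lu-R. KDM1A, the gene of the corin target LSD1, rose by 0.38 ± 0.03 (adjusted p = 2.62e-10) and 0.46 ± 0.04 (adjusted p = 2.87e-09), and RCOR1, the CoREST scaffold, by 0.82 ± 0.06 (adjusted p = 2.74e-10) and 0.97 ± 0.07 (adjusted p = 3.78e-11). HDAC2 rose by 0.35 and 0.34 (adjusted p = 2.19e-08 and 1.76e-08), and HDAC1 rose by 0.53 in 451Lu-R (adjusted p = 9.38e-12) and was not called in 1205Lu-R (log2 -0.09, adjusted p = 0.0572). L3MBTL3, a corepressor that binds RBPJ, rose by 1.93 ± 0.13 (adjusted p = 5.88e-11) and 2.40 ± 0.14 (adjusted p = 4.67e-13), and TLE4, a Groucho family corepressor, by 3.80 ± 0.12 (adjusted p = 1.73e-16) and 0.84 ± 0.10 (adjusted p = 1.51e-07).

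Target genes outside the HES and HEY family did not share a direction. NRARP, a feedback inhibitor induced by Notch, had 0 and 0 counts under DMSO and 26 and 14 under corin in 451Lu-R, at least 13.7-fold higher, and 0 counts in all 4 libraries of 1205Lu-R. DTX1 rose in both lines, by 0.78 ± 0.12 (adjusted p = 4.74e-06) and 2.41 ± 0.17 (adjusted p = 2.18e-11). MYC fell in both, from 239 and 238 to 35.8 and 39.5 CPM in 451Lu-R (log2 -2.69 ± 0.05, adjusted p = 1.36e-20) and by 0.28 in 1205Lu-R (adjusted p = 0.000212). CCND1 rose in 451Lu-R (log2 2.01 ± 0.02, adjusted p = 4.08e-23) and fell by 0.28 in 1205Lu-R (adjusted p = 5.50e-11). Of the 8 genes for turnover and inhibition, 451Lu-R had 2 higher and 5 lower among 7 tested, and 1205Lu-R had 3 higher and 4 lower. DTX4 moved in opposite directions, with -1.15 ± 0.09 (adjusted p = 3.52e-10) in 451Lu-R and 2.54 ± 0.25 (adjusted p = 5.02e-09) in 1205Lu-R. The plot of the pathway by role shows the ligands, receptors and HES and HEY factors right of 0 apart from NOTCH4, and the coactivator complex left of it apart from KAT2B in 1205Lu-R.

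**Figure D5:**
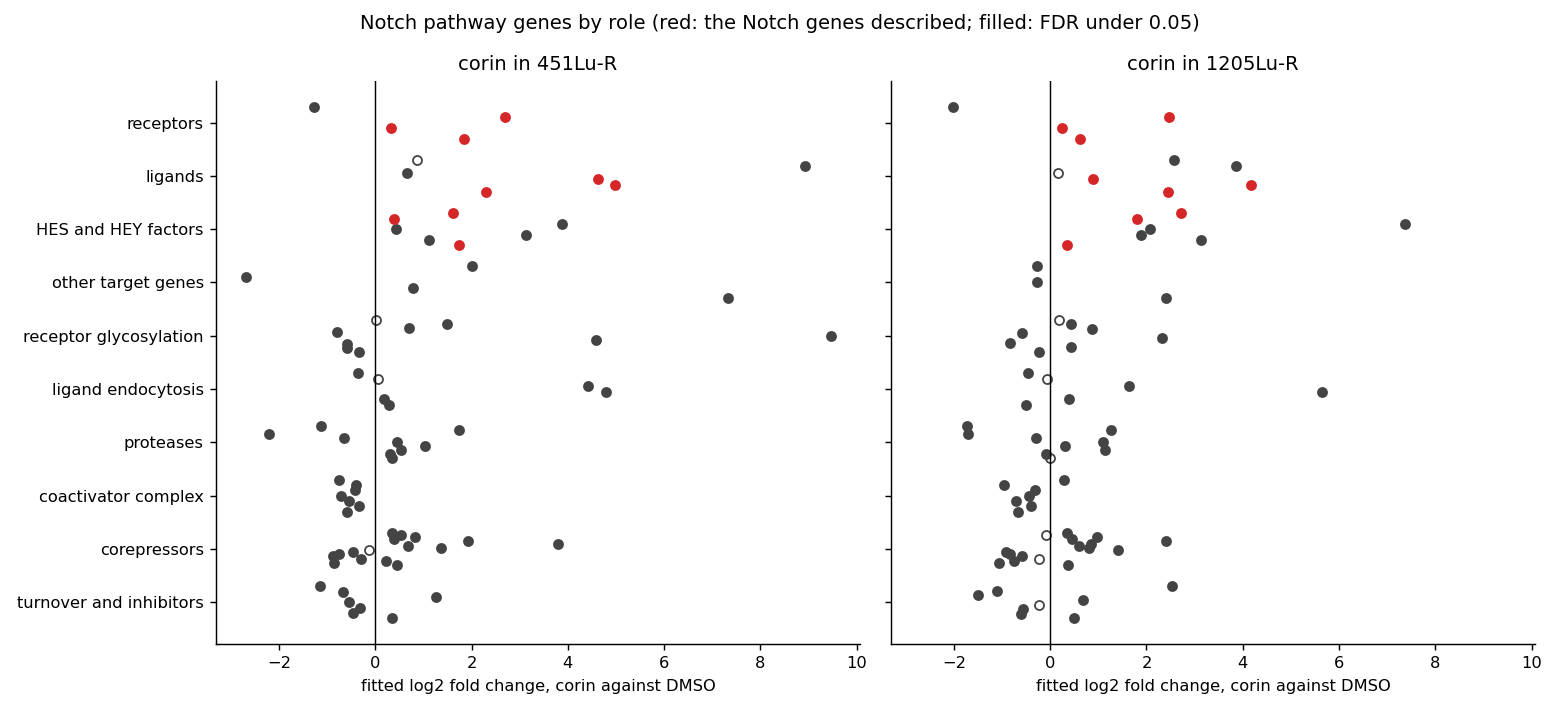
Fitted log2 fold change under corin against DMSO (x axis) for the Notch pathway genes tested, by role (y axis), in 451Lu-R and 1205Lu-R, with the members in red and genes called at an adjusted p under 0.05 filled. All HES and HEY factors lie above 0 and 7 of 7 coactivators in 451Lu-R lie below it, while the points beyond 7 (MFNG, DLL4, NRARP and HES7) had 0 counts under DMSO, so that their fitted size depends on the prior count.

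Likeness of pattern was measured as the root mean square difference of centred log2 CPM over the 8 libraries, against the 75 other pathway genes that could be compared, with smaller values for more alike patterns. NOTCH2 was nearest to the protease gene FURIN (0.132), NOTCH1 to the ubiquitin ligase gene DTX2 (0.226) and JAG1 to HES7 (0.311). DLL1 and HES1 were nearest to each other (0.359), both lowest in 451Lu-R under DMSO and higher in 1205Lu-R than in 451Lu-R. The 0.5 added to CPM before the log narrows the changes of genes at low CPM such as DLL1. Under corin in 451Lu-R the fitted log2 changes were 4.62 for DLL1 and 1.74 for HES1. NOTCH3 was nearest to HES4 (0.364) and JAG2 to DLL4 (0.509), pairs that rose from low levels in both lines. HEY1 (0.599) and HEY2 (0.458) were both nearest to HES6, which was higher in 451Lu-R under both treatments. These values describe 8 libraries that share lines and treatments.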

How the data were processed

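Polyadenylated RNA of 16 samples was sequenced on an Illumina NextSeq. After trimming in Trimmomatic, the authors ran Salmon on the GENCODE 32 transcriptome and added transcripts up to genes (versions are not given in the sources used here). For 8 libraries they deposited estimated counts without normalization. Their 2 tables for PLX4032, with log2 fold changes and p-values, were not used.

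Of 34228 genes, 34052 were named by GENCODE 44 (GRCh38), whose canonical transcripts gave lengths. Rounded counts entered edgeR 4.0.16 in R 4.3.3 (filterByExpr, TMM factors 0.962 to 1.05, glmQLFit, glmQLFTest, 2-sided, Benjamini-Hochberg) for 5 comparisons. SEs and 95% intervals follow from each p. Patterns used log2(CPM + 0.5).

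Members, lists and alternatives were chosen with earlier results of these data known. Pathway genes were named at an adjusted p under 0.05, a log2 change of at least 1 and 1 CPM, at most 12 a comparison, with RBPJ, KDM1A, RCOR1, HDAC1, HDAC2 and each member's nearest gene. Not every gene this rule names is reported here. The fits were tested on simulated data. Alternatives were DESeq2 1.42.0, RLE or library size scaling, no filter, a 1 CPM filter, a replicate block, 1 fit of all libraries and leaving out each library. Intervals of counts cover counting error only.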

Additional observations from a re-analysis of the deposited data

Results flagged for a closer look

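For 6 members the response to corin differed between the lines by the interaction term in edgeR, which was called for 49.7% of all genes. It is given as the log2 response in 1205Lu-R minus that in 451Lu-R. DLL1 had -3.78, HES1 -1.43, NOTCH1 -1.25 and NOTCH2 -0.11, all with the larger response in 451Lu-R in this fit. The NOTCH2 call was lost with DESeq2 and without most of the single libraries, and its sign turned with library size only. HEY1 had 1.39 and HEY2 1.07, with the larger response in 1205Lu-R. The DLL1 value rests on 2 counts in 451Lu-R with DMSO, all of them in replicate 1, and was -6.92 without that library and -2.95 without replicate 2. The HEY2 value rests on 4 and 7 counts in 1205Lu-R with DMSO and was 0.69 without replicate 1 of that group.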

How the results depend on the processing

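The 9 members tested rose with corin in both lines, and 4 passed a 4-fold change in each, under all alternatives run. Between the lines, 8 members were called with DMSO under all alternatives and from 7 to 8 with corin, and from 4 to 6 were called for a different response. Over single members, 502 of 522 alternatives kept direction and side of the threshold, 16 lost a call, 2 gained a call and 2 turned the sign. The sign turned for the response difference of NOTCH2, which was 0.10 with library size only (adjusted p = 0.0538), and for NOTCH1 between the lines with corin, never called, which ran from -0.0102 without 1205Lu-R corin replicate 1 to 0.0819 without 1205Lu-R corin replicate 2. The lost calls were those of NOTCH2 and HEY2 for a different response. Gained were JAG2 between the lines with corin without 451Lu-R corin replicate 1 (-0.25, adjusted p = 0.0331) and JAG1 for a different response with library size only (0.33, adjusted p = 0.00126). The causes were not tested.

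Same-numbered libraries did not deviate together, with correlations from -0.031 to 0.039. With the replicate number as a block, 9 members were called with corin in each line, 8 and 7 between the lines, and 5 in place of 6 for a different response, where HEY2 (1.07, adjusted p = 0.0568) was not called. DESeq2 and the fits with no filter tested more genes of low counts. Depth limits HEYL, DLL1 in 451Lu-R and HEY2 in 1205Lu-R, whose DMSO libraries had at most 7 counts. With 2 libraries a group, leaving out a library leaves 1, which is assumed to vary like the other groups.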

Other observations

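Several other genes of the Notch lists differed between the lines more than the receptors did. DTX3, of the Deltex family of ubiquitin ligases, had 0 counts in all 4 libraries of 451Lu-R and 69 and 79 in 1205Lu-R with DMSO, at least 51.0-fold higher, and fell there with corin by 1.51 ± 0.23 on the log2 scale (edgeR, adjusted p = 4.65e-06). DTX4, of the same family, was lower in 1205Lu-R with DMSO (log2 -5.01, adjusted p = 6.40e-20). The ligand gene DLL3 was lower in 1205Lu-R with DMSO (log2 -1.93, adjusted p = 1.71e-11) and with corin (log2 -2.45, adjusted p = 2.91e-12). LFNG was higher in 1205Lu-R with DMSO (log2 4.27, adjusted p = 1.13e-11) and with corin (log2 1.98, adjusted p = 5.34e-13). HES6 was lower in 1205Lu-R (log2 -3.44, adjusted p = 8.68e-25, and -1.84, adjusted p = 1.75e-17), on the side of HEY1 and HEY2. NUMB, an inhibitor of Notch, was higher in 1205Lu-R with DMSO (log2 1.49, adjusted p = 1.41e-17) and with corin (log2 1.61, adjusted p = 1.15e-15). The ligand-like gene DLK2 rose with corin in 1205Lu-R (log2 2.57, adjusted p = 2.15e-08) and had a log2 value of 0.86 in 451Lu-R that was not called (adjusted p = 0.0585).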
